A study of Mus musculus with 4 samples.

Results

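Chemokine and chemokine receptor genes were followed through 4 primary mammary tumors of female mice, 2 of them triple-mutant (genotype WapCreC;Rank;Brca1;p53) and the other 2 double-mutant (genotype WapCreC;Brca1;p53). The genes were chosen by name alone, as every row whose symbol begins with Ccl, Cxcl, Cx3cl, Xcl, Ccr, Cxcr, Cx3cr or Xcr and goes on with a number and at most a single lower-case letter. This gave 67 of the 23746 rows of the tables, which stand for 58 distinct symbols, 39 of ligands and 19 of receptors, because Ccl19, Ccl21a, Ccl21b and Ccl27b are listed at more than 1 place in the genome. Both genotypes carry the WapCreC transgene and floxed Brca1 and p53 alleles, and the triple-mutant genotype adds a floxed allele of Rank, the receptor of the cytokine RANKL. The WapCreC transgene expresses Cre under the whey acidic protein promoter in luminal and basal mammary epithelial cells, and is not directed to stromal or immune cells of the tumors. Females of both genotypes were littermates, but which tumors came from 1 litter is not given in the sources used here, nor is the age at which each of the 4 tumors was taken. Tumor grade goes with genotype in this cohort, with intermediate-grade tumors in triple-mutant and both intermediate-grade and high-grade tumors in double-mutant mice, and the grades of the 2 sequenced double-mutant tumors are not given, so that grade and genotype cannot be told apart. PolyA RNA was read as 50-bp single reads, and each gene's level is given as FPKM, a fragment count scaled to transcript length and to all mapped fragments, which corrects for transcript length and so allows levels of different genes to be compared.

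Chemokines are small secreted proteins that bind heparan sulfate on cells and matrix and guide leukocytes along a gradient toward their source. They are named for the spacing of their first cysteines (CC, CXC, CX3C and XC), and they signal through receptors that couple to inhibitory G proteins, while atypical receptors bind ligands without that signal and remove them. In mammary tumors these ligands come from tumor epithelium, fibroblasts, endothelium and leukocytes, and their receptors lie mostly on leukocytes, with CXCR4 also found on tumor epithelium. In bulk RNA, fewer cells of a type and less RNA per cell cannot be told apart.

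The labels were first set against the data. Rank (Tnfrsf11a) was at 2.07 and 0.962 FPKM in triple-mutant tumors 26043 and 26044 and at 10.6 and 11.9 FPKM in double-mutant tumors 26048 and 26050. Epithelial markers were present in every tumor, but tumor 26044 stood apart in some luminal markers. Epcam was there at 25.7 FPKM against 347 to 516 FPKM in the other 3 tumors, and Krt8 at 98.3 FPKM against 579 to 708 FPKM. Another luminal marker, Krt19, was at 1154 and 194 FPKM in triple-mutant and at 139 and 56.7 FPKM in double-mutant tumors. For Krt19, tumor 26044 thus lay above both double-mutant tumors. The basal marker Trp63 was highest in tumor 26044, at 48.1 FPKM. The same tumor had the highest summed level of the 7 endothelial markers, 77.6 FPKM against 23.2 to 41.5 FPKM. Double-mutant tumor 26048 held adipocyte RNA, with Adipoq at 56.0 FPKM against at most 0.829 FPKM elsewhere. Cidec and Plin1 were likewise at or below 0.571 FPKM outside that tumor. Fabp4, from the same marker list, was at 7.01 and 261 FPKM in triple-mutant and at 1263 and 29.9 FPKM in double-mutant tumors. Over the 897 to 1098 genes with values between 0 and 0.1 FPKM in both tumors of a pair, the most frequent ratio between tumors was within 0.075 log2 units (1.05-fold) of equality, which is the view of relative depth that these values allow. The number of reads is unknown. Nothing in the labels says more about the replicates than that they are separate tumors, and with 2 tumors against 2 an exact permutation test cannot go below p = 0.33. Most named genes are therefore given with the values of the 4 tumors, and many also with the limma statistic from a fit over all genes. For members, the difference without tumor 26044 is added where that matters. For genes outside the member list it is not given, whether or not it matters.

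Of the 67 rows, 30 reached at least 1 FPKM in at least 2 tumors and entered the fit of log2(FPKM + 1), 23 ligands and 7 receptors. In 15 of these 30 both double-mutant tumors lay above both triple-mutant tumors, a pattern seen in 22.9% of all 12752 genes tested, and in 1 the order was the opposite, against 21.3% of all genes. In 11 of the 15 the difference also came to at least 1 log2 unit, against 4.65% of all genes, and in the opposite direction 1 member did so, against 7.3% of all genes. The log2 difference, triple-mutant minus double-mutant, was negative in 25 members and positive in the other 5, which were Ccl5, Ccl27a, Cxcl11, Cxcl12 and Cxcl14. Its median was -0.82 over the 30 members and -0.02 over all genes tested. Of the 30, Ccl20 and Ccl3 reached the filter only through the double-mutant tumors and so had to be higher there. Without the genes that reached it through a single genotype, 13 of 28 members were higher in both double-mutant tumors, against 22.6% of all such genes, and 10 of them by at least 1 log2 unit, against 4.3%. In the opposite direction 1 member remained, against 19.8%, and 5.8% by at least 1 log2 unit. None passed an adjusted p under 0.05 (limma, Benjamini-Hochberg over 12752 genes, where 0.0% of genes passed), and 7 of 30 had an unadjusted p under 0.05, against 9.82% of all genes. Of these 7, 6 were higher in double-mutant tumors, against 3.91% of all genes, and 1 in triple-mutant tumors, against 5.91%. The smallest adjusted p of a member was 0.284, that of Cxcr4. With limma without the trend or with quantile normalization the number of members past the threshold was also 0.

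Tumor 26044 weighed on these counts. It was the lowest of the 4 tumors in 24 of the 30 members, against 39.0% of all genes tested. Over the members the median absolute difference between the triple-mutant tumors was 1.08 log2 units, wider than the 0.66 units between the double-mutant tumors and the 0.59 and 0.67 units that separate tumor 26043 from each of the latter. Without tumor 26044, 16 members were higher in both double-mutant tumors than in tumor 26043, with a background of 31.9%, and 5 of them by at least 1 log2 unit, with a background of 4.31%. These 5 were Ccl2, Ccl8, Ccl20, Cxcl12 and Cxcr4. Ccl20, and Ccl3 among the 16, reached the filter only through the double-mutant tumors and so had to be higher there. Both backgrounds also still hold such genes. In the opposite direction 4 members were higher in tumor 26043 than in both double-mutant tumors, with a background of 40.2%, all 4 by at least 1 log2 unit, with a background of 9.54%, and these were Ccl5, Cxcl10, Cxcl11 and Cxcl14. The plots of the members by tumor and of their differences show both patterns.

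**Figure D1:**
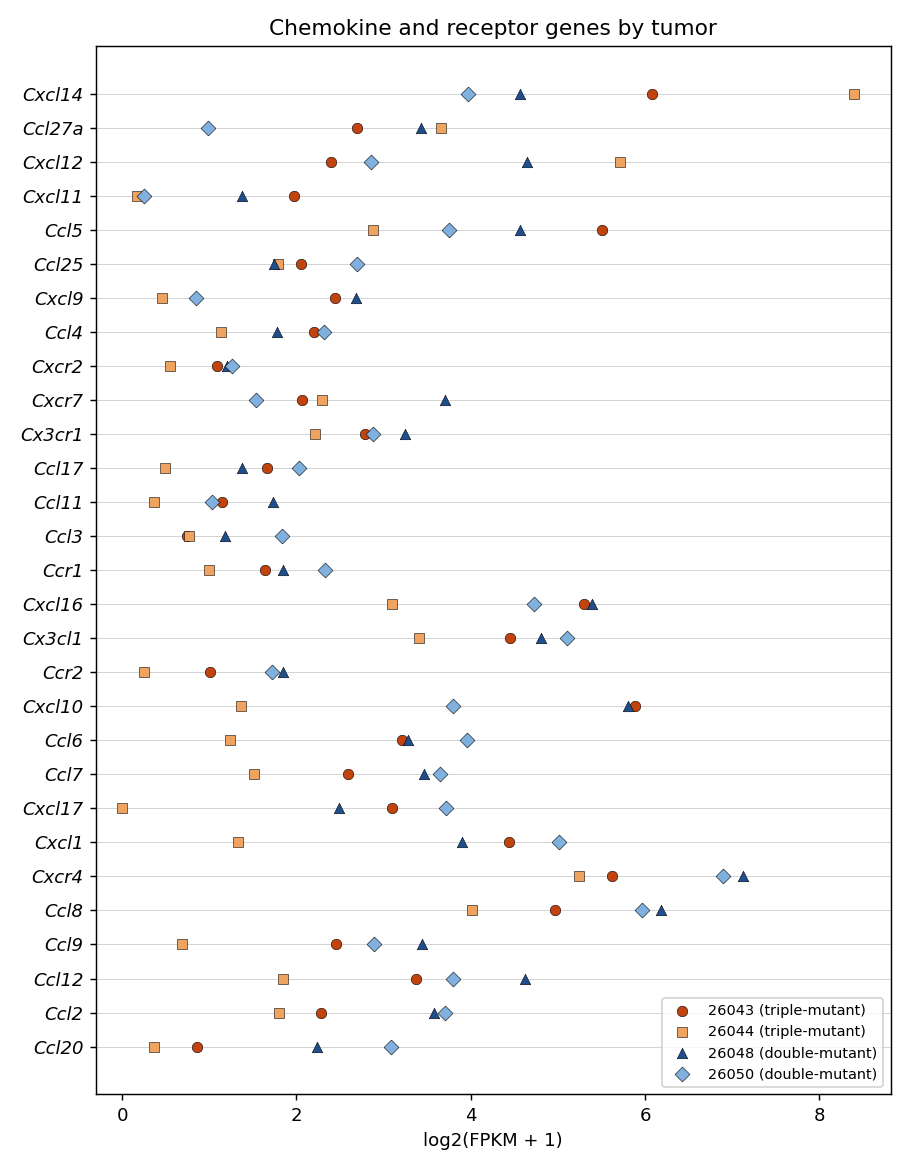
Level of 29 tested chemokine and receptor genes in each tumor, as log2(FPKM + 1) on the horizontal axis, with 1 point per tumor and genes ordered by the difference between genotypes. Tumor 26044 (squares) lies lowest in 23 of these genes, and Cxcl14 at the top is the gene with both triple-mutant tumors above both double-mutant tumors.

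**Figure D2:**
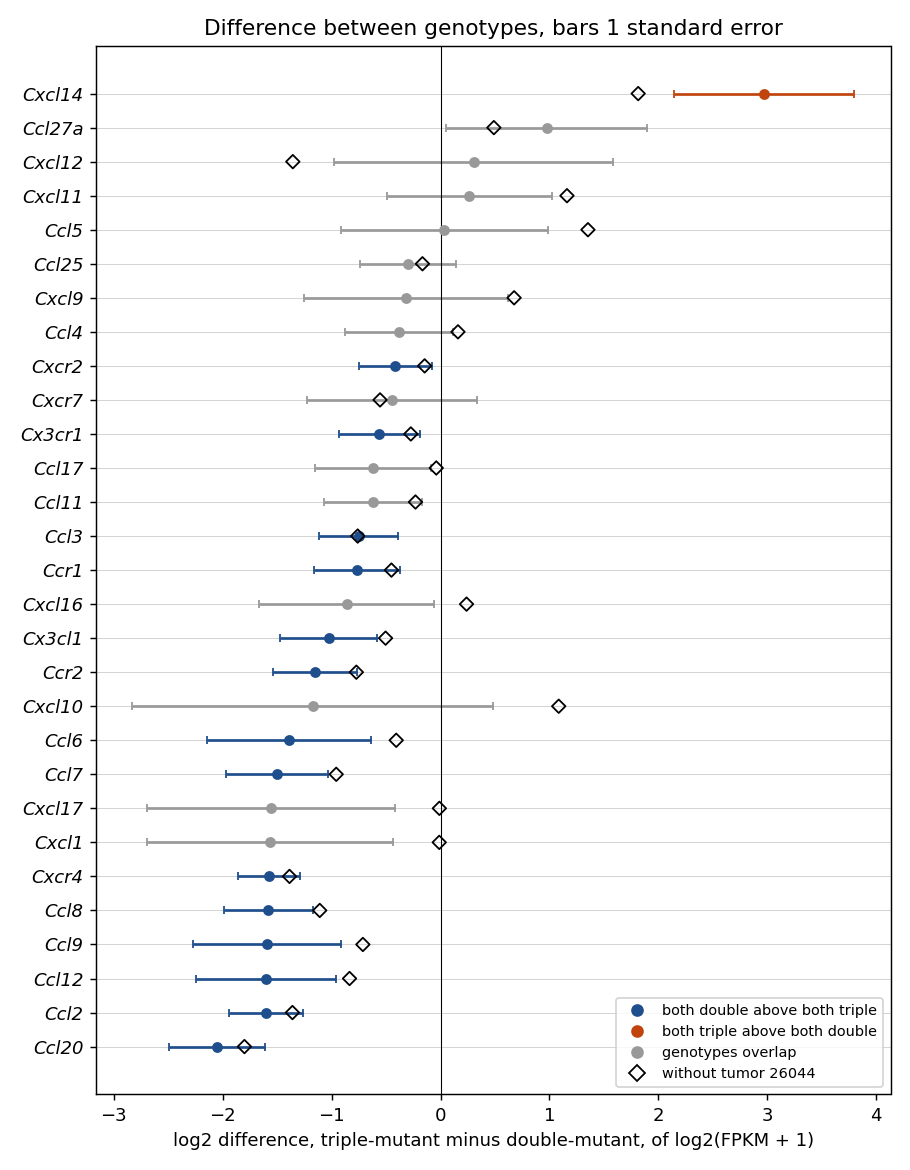
Log2 difference of log2(FPKM + 1), triple-mutant minus double-mutant, for 29 tested members, with bars of 1 standard error from limma (n = 2 tumors per genotype). Filled points are coloured by whether the genotypes overlap, and open diamonds give the difference without tumor 26044, which for Cxcr4, Ccl2 and Ccl20 stay near the filled points and for Cxcl10 cross 0. Ccl20 and Ccl3 reached the filter only through the double-mutant tumors, so the direction of their differences was fixed by it.

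Among receptors, Cxcr4 stood out by its level and by its difference. CXCR4 is the receptor of CXCL12 and serves in retention and homing of leukocytes and in migration of tumor cells. Its RNA was at 48.3 and 36.9 FPKM in triple-mutant tumors 26043 and 26044 and at 139 and 118 FPKM in double-mutant tumors 26048 and 26050. The genotypes did not overlap, and each genotype's tumors lay close together, at 42.6 ± 8.1 and 128 ± 14 FPKM (SD, n = 2 each), so that the double-mutant mean was 3.01-fold higher. The log2 difference was -1.58 (standard error 0.29, adjusted p = 0.284 from limma), and it was -1.39 without tumor 26044. Cxcr4 alone made up 69.1% and 73.6% of the summed FPKM of the receptors chosen by name in triple-mutant and 79.5% and 83.3% in double-mutant tumors. That sum leaves out receptors whose symbols the rule misses, such as Ccrl1 and Ccrl2, which were higher in both triple-mutant tumors. Its ligand gene Cxcl12 did not follow the genotype. It was at 4.26 and 51.5 FPKM in triple-mutant and at 24.1 and 6.23 FPKM in double-mutant tumors, so the highest and the lowest level were both in triple-mutant tumors. Cxcl12 was thus 12.1-fold higher in tumor 26044 than in tumor 26043, and its log2 difference between genotypes (0.30, standard error 1.28) turned to -1.36 without tumor 26044. The tumors stood in the same order for the endothelial marker Pecam1, at 8.54 and 28.5 FPKM in triple-mutant and 15.0 and 8.65 FPKM in double-mutant tumors, except that its 2 lowest tumors were nearly equal. Cdh5 also stood in this order, at 7.22 and 28.7 FPKM in triple-mutant and 13.2 and 7.36 FPKM in double-mutant tumors. For Kdr and Tie1 tumor 26044 was likewise highest and tumor 26048 next, but tumor 26050 was lowest. Lyve1, Prox1 and Tek did not share this order. Lyve1 and Prox1 were lowest in tumor 26044, at 0.0551 and 0.00901 FPKM, and Tek was highest in tumor 26048, at 1.58 FPKM. The 7 endothelial markers summed to 23.2 and 77.6 FPKM in triple-mutant and to 41.5 and 23.2 FPKM in double-mutant tumors, with 4 tested and all 4 overlapping between genotypes, and none was at 0. The part of these cells in the Cxcl12 level was not tested. Cxcr7, now called Ackr3, encodes a scavenging receptor for CXCL12 and was at 3.19 and 3.89 FPKM in triple-mutant and at 12.0 and 1.90 FPKM in double-mutant tumors, where the double-mutant values lie on either side of the triple-mutant ones.

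The monocyte chemoattractants Ccl2, Ccl7 and Ccl12 followed a pattern that they shared with their neighbour Ccl8. Ccl2, Ccl7, Ccl12 and Ccl8 lie with Ccl11 and Ccl1 on chromosome 11 from 82035577 to 82179812 (mm10, the build named in the submitters' processing notes), and in each of the former 4 both double-mutant tumors were above both triple-mutant tumors. Ccl2, the main ligand of CCR2, which draws monocytes out of bone marrow and into tissue, was at 3.87 and 2.49 FPKM in triple-mutant and at 10.9 and 12.1 FPKM in double-mutant tumors. Its log2 difference was -1.60 (standard error 0.34, adjusted p = 0.347 from limma), and it was -1.36 without tumor 26044. Ccl7, another ligand of CCR2, was at 5.04 and 1.86 FPKM against 10.02 and 11.5 FPKM. Its genotypes did not overlap, and tumor 26044 was the lowest. Ccl12, a mouse CCR2 ligand, was at 9.37 and 2.60 FPKM against 23.7 and 12.9 FPKM. Here the gap between genotypes, from 9.37 to 12.9 FPKM, was narrower than the gap within either of them. Ccl8, in the mouse a ligand of CCR8, was the most abundant of the group at 30.2 and 15.2 FPKM against 71.6 and 61.3 FPKM. Its log2 difference was -1.58 (standard error 0.41, adjusted p = 0.431 from limma), and it was -1.11 without tumor 26044. For Ccl7 and Ccl12 the differences of -1.50 and -1.60 became -0.96 and -0.84 without that tumor. Ccl11, the eosinophil chemoattractant eotaxin in the middle of this group, was low and overlapped between genotypes (1.22 and 0.287 against 2.31 and 1.04 FPKM), and Ccl1 reached at most 0.401 FPKM. The receptor gene Ccr2 was at 1.014 and 0.186 FPKM in triple-mutant and at 2.59 and 2.30 FPKM in double-mutant tumors, a log2 difference of -1.15 (standard error 0.39, adjusted p = 0.485 from limma), or -0.77 without tumor 26044. Ccr8, the receptor of CCL8, was listed at 0 in all 4 tumors.

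**Figure D3:**
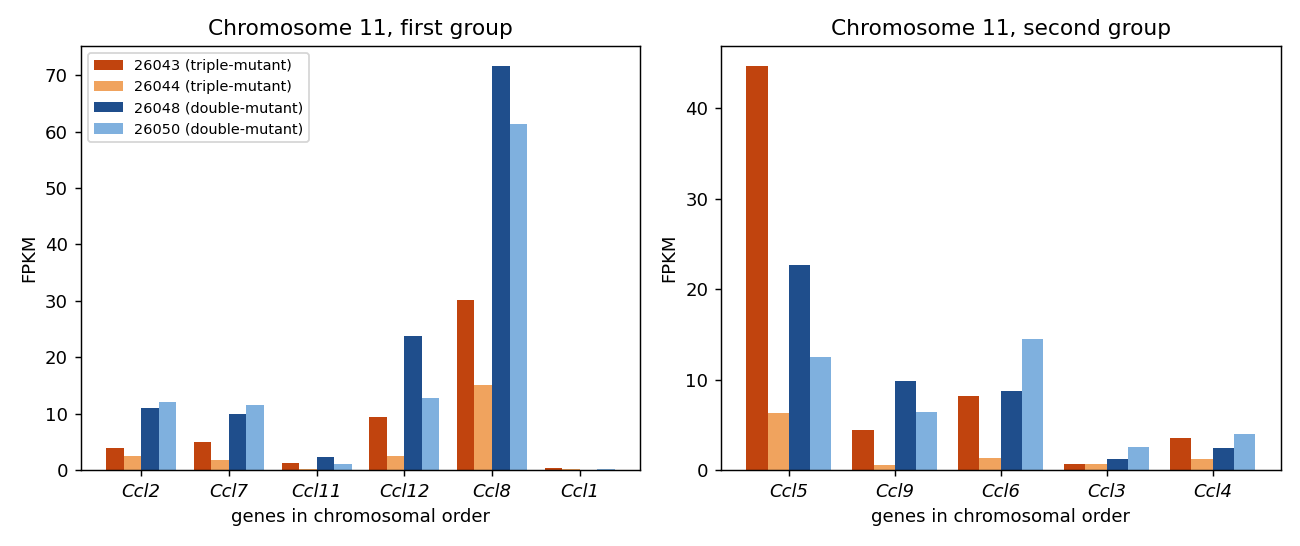
FPKM of the Ccl genes in the 2 groups on chromosome 11, in chromosomal order, with 1 bar per tumor and axes from 0. In the first group Ccl2, Ccl7, Ccl12 and Ccl8 are higher in both double-mutant tumors than in both triple-mutant tumors, and in the second group Ccl5 is highest in triple-mutant tumor 26043 at 44.6 FPKM.

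Cell type markers were measured beside these ligands. Of 7 macrophage and monocyte markers tested, 4 (Cd68, Emr1, Itgam and Mrc1) were higher in both double-mutant tumors and the other 3 overlapped, and the list summed to 146 and 54.9 FPKM in triple-mutant and to 194 and 120.7 FPKM in double-mutant tumors. Emr1, the macrophage antigen F4/80, was at 6.74 and 4.52 FPKM against 13.4 and 10.3 FPKM. Of 3 pan-leukocyte markers, Ptprc (CD45) and Laptm5 were higher in both double-mutant tumors and Coro1a overlapped. Ptprc was at 3.67 and 1.61 FPKM against 3.97 and 4.02 FPKM, so that tumor 26043 was close to both double-mutant tumors. Of 8 fibroblast markers, 5 were higher in both double-mutant tumors, 1 (Pdgfra) was higher in both triple-mutant tumors and 2 overlapped, with sums of 206 and 123 FPKM against 908 and 439 FPKM. Over all genes the shares were 22.9% higher in double-mutant and 21.3% higher in triple-mutant tumors, and the fibroblast marker Dpt reached the filter only through the double-mutant tumors. None of these markers was at 0 in any tumor. The part of macrophages and fibroblasts in the ligand and receptor levels was not tested. The plot of the markers by tumor shows these values.

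**Figure D4:**
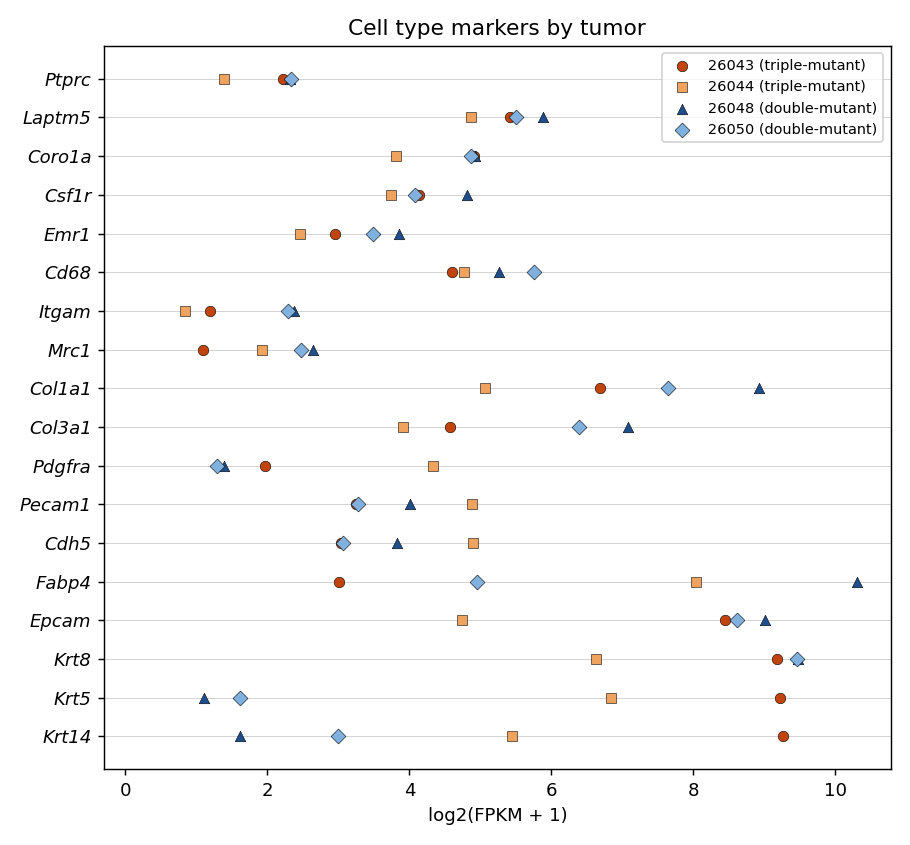
Level of leukocyte, macrophage, fibroblast, endothelial, adipocyte and epithelial marker genes in each tumor, as log2(FPKM + 1), with 1 point per tumor. Tumor 26044 is lowest for Ptprc, Epcam and Krt8 and highest for Pecam1, Cdh5 and Pdgfra, and the basal keratin genes Krt5 and Krt14 are higher in both triple-mutant tumors.

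The second Ccl group on chromosome 11, from 83525779 to 83664683, was split. Ccl9, Ccl6 and Ccl3, which encode ligands of CCR1, were higher in both double-mutant tumors. Ccl9 was at 4.47 and 0.614 FPKM in triple-mutant and at 9.87 and 6.40 FPKM in double-mutant tumors, a log2 difference of -1.59 that came to -0.71 without tumor 26044. Ccl6 was at 8.24 and 1.35 FPKM against 8.70 and 14.5 FPKM, so that tumors 26043 and 26048 were nearly equal. The Ccl6 difference of -1.39 became -0.41 without tumor 26044. Ccl3 was at 0.677 and 0.697 FPKM against 1.26 and 2.58 FPKM. Ccl4 and Ccl5, at either end of the group, overlapped between genotypes. Ccl5, made chiefly by activated T and NK cells, was at 44.6 and 6.35 FPKM in triple-mutant and at 22.7 and 12.45 FPKM in double-mutant tumors, with both extremes in triple-mutant tumors. Its log2 difference of 0.04 (standard error 0.95) ran from -1.28 without tumor 26043 to 1.35 without tumor 26044. The receptor gene Ccr1, which lies near Ccr2 on chromosome 9, did not overlap between genotypes. It was at 2.11 and 0.9998 FPKM against 2.59 and 4.03 FPKM. The log2 difference of -0.77 (standard error 0.40, adjusted p = 0.578 from limma) became -0.45 without tumor 26044.

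Ccl20 entered the fit only because it reached 1 FPKM in the double-mutant tumors, so its difference is given as a description. CCL20 is made by epithelium and draws CCR6-bearing lymphocytes and dendritic cells. Its RNA was at 0.817 and 0.284 FPKM in triple-mutant and at 3.70 and 7.51 FPKM in double-mutant tumors, 0.55 ± 0.38 against 5.61 ± 2.69 FPKM (SD, n = 2 each). The genotypes did not overlap, and the log2 difference was -2.05, or -1.80 without tumor 26044. Ccr6, its receptor gene, was listed at 0 in all but tumor 26043, where it was at 0.0818 FPKM. The ligands that are made as membrane-anchored proteins and shed by ADAM proteases were abundant. Cx3cl1 (fractalkine), which captures monocytes on endothelium and epithelium, was at 20.8 and 9.60 FPKM in triple-mutant and at 26.9 and 33.4 FPKM in double-mutant tumors. The genotypes did not overlap, and the log2 difference of -1.03 (standard error 0.45, adjusted p = 0.536 from limma) became -0.50 without tumor 26044. Cx3cr1, its receptor gene, was at 5.92 and 3.64 FPKM against 8.48 and 6.37 FPKM, where the gap between genotypes, from 5.92 to 6.37 FPKM, was narrower than the gap within either. Cxcl16, ligand of CXCR6, overlapped at 38.4 and 7.57 FPKM against 41.0 and 25.5 FPKM. Its receptor gene Cxcr6 did not exceed 0.490 FPKM in any tumor.

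Cxcl14 was the member with the reverse order. CXCL14 is a chemokine of epithelium and fibroblasts that attracts monocytes and immature dendritic cells, and its signaling receptor is not settled. Its RNA was at 66.9 and 336 FPKM in triple-mutant tumors 26043 and 26044 and at 22.7 and 14.7 FPKM in double-mutant tumors 26048 and 26050, 201 ± 190.4 against 18.7 ± 5.7 FPKM (SD, n = 2 each). The genotypes did not overlap and the triple-mutant mean was 10.8-fold higher, but the triple-mutant tumors themselves differed 5.03-fold. The log2 difference was 2.97 (standard error 0.83, adjusted p = 0.466 from limma), and without tumor 26044 it was 1.81. Cxcl14 dominated the ligand RNA of that tumor. It took 73.2% of the summed FPKM of the ligands chosen by name in tumor 26044 and 18.6% in tumor 26043, against 5.99% and 4.94% in the double-mutant tumors. That sum leaves out Pf4, at 5.76 and 14.7 FPKM in triple-mutant and 12.6 and 17.8 FPKM in double-mutant tumors. In both double-mutant tumors the largest share was that of Ccl8, 18.9% and 20.6%, against 8.40% and 3.31% in triple-mutant tumors. Summed over the ligands chosen by name, the level was 359 and 459 FPKM in triple-mutant and 379 and 297 FPKM in double-mutant tumors. Without Cxcl14 the sum was 292 and 123 FPKM in triple-mutant and 357 and 283 FPKM in double-mutant tumors, so that tumor 26044 alone lay clearly below the others. The fibroblast marker Pdgfra, at 2.90 and 19.1 FPKM against 1.63 and 1.44 FPKM, stood in the same order as Cxcl14 over the 4 tumors, which was noticed after the values were seen. The fibroblast list as a whole did not, since 5 of its 8 markers were higher in both double-mutant tumors, such as Col3a1 at 22.7 and 13.98 FPKM against 134.9 and 83.1 FPKM. All 4 basal epithelial markers were higher in both triple-mutant tumors, with sums of 1671 and 359 FPKM against 7.71 and 14.5 FPKM. Krt5 was at 596 and 114 FPKM against 1.15 and 2.06 FPKM, and Trp63 at 28.5 and 48.1 FPKM against 1.24 and 0.670 FPKM. Trp63 thus also stood in the order of Cxcl14 over the 4 tumors. Krt5, Krt14 and Krt17 did not, being higher in tumor 26043 than in tumor 26044. None of these markers was at 0 in any tumor, and the part of fibroblasts and basal cells in the Cxcl14 level was not tested.

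**Figure D5:**
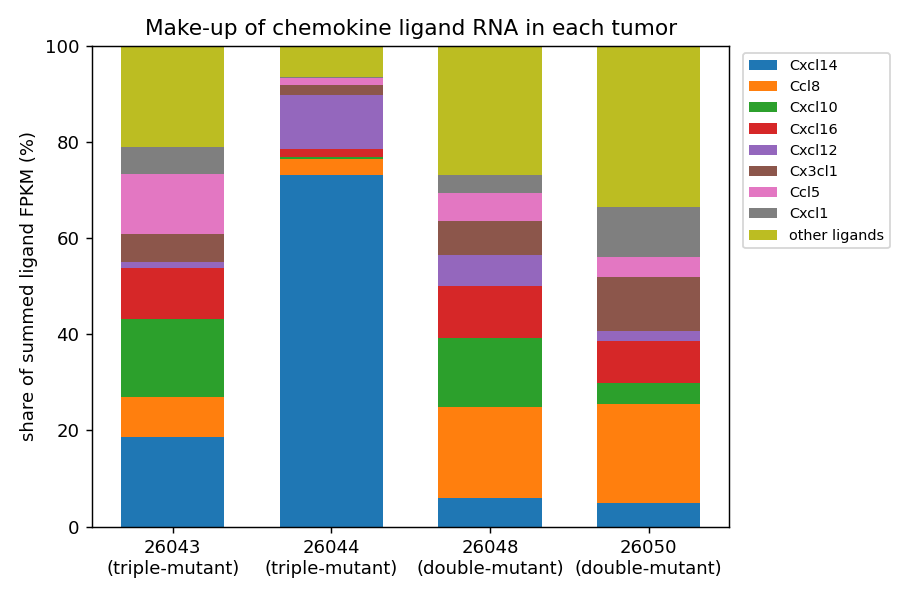
Share of the summed FPKM of the chemokine ligands chosen by name taken by 8 named ligands and by the rest, as stacked bars in percent for each tumor. Cxcl14 takes 73.2% in triple-mutant tumor 26044, while Ccl8 is the largest share in both double-mutant tumors.

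The interferon-inducible ligands of CXCR3 split the tumors across genotypes. CXCL9, CXCL10 and CXCL11 are induced by interferons and draw activated T and NK cells. Cxcl10 was at 58.1 and 1.58 FPKM in triple-mutant and at 54.7 and 12.9 FPKM in double-mutant tumors, a 36.8-fold difference within the triple-mutant and a 4.23-fold difference within the double-mutant pair. Cxcl9 was at 4.44 and 0.375 FPKM against 5.42 and 0.806 FPKM. Cxcl11 was at 2.92 and 0.129 FPKM against 1.59 and 0.186 FPKM. In each of the 3 neighbouring genes, on chromosome 5 from 92321331 to 92363296, tumors 26043 and 26048 were above tumors 26044 and 26050, and tumor 26044 was lowest. None differed between genotypes beyond this spread, with log2 differences of -1.17 for Cxcl10 (standard error 1.66), -0.32 for Cxcl9 (standard error 0.94) and 0.26 for Cxcl11 (standard error 0.76), and leaving out a single tumor turned the sign of each. The receptor gene Cxcr3, below the filter, had the same high and low tumors, at 0.424 and 0.0434 FPKM in triple-mutant and at 0.670 and 0.115 FPKM in double-mutant tumors. So did Cxcr6, at 0.356 and 0.0530 FPKM against 0.490 and 0.0714 FPKM. Among 10 T and NK cell markers, Cd3e was at 0.478 and 0.0979 FPKM against 0.444 and 0.156 FPKM, while Cd4 was highest in tumor 26044, and the list summed to 5.34 and 2.79 FPKM in triple-mutant and to 3.74 and 1.08 FPKM in double-mutant tumors. Gzma, Gzmb, Ncr1 and Prf1 were at 0 in tumor 26044, and Gzmb and Ncr1 also in tumor 26050. The part of T and NK cells in these ligand levels was not tested.

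Of the ligands of CXCR2, which call in neutrophils, Cxcl1 was the 1 above the filter. It was at 20.8 and 1.52 FPKM in triple-mutant and at 13.96 and 31.2 FPKM in double-mutant tumors, so that tumor 26044 alone was low. The log2 difference of -1.57 (standard error 1.13) was -0.01 without tumor 26044. Its neighbours on chromosome 5 were low. Cxcl2, Cxcl3 and Cxcl5 stayed at or below 1.86 FPKM in every tumor. Cxcl15 (lungkine) was at 2.21 and 0.984 FPKM in triple-mutant and at 0.139 and 0.0278 FPKM in double-mutant tumors. It was higher in both triple-mutant tumors but missed the filter and has no test. The receptor gene Cxcr2 was at 1.12 and 0.461 FPKM against 1.30 and 1.39 FPKM, where tumor 26043 was again near the double-mutant tumors. Of 7 neutrophil marker symbols 6 were found, and they summed to 36.9 and 14.2 FPKM in triple-mutant and to 9.56 and 51.0 FPKM in double-mutant tumors, with Camp at 0 in both double-mutant tumors and Mpo at 0 in tumor 26050. Tumor 26050, highest for Cxcl1, was also highest for this sum, most of which was S100a8 and S100a9, at 24.9 and 23.7 FPKM there. S100a8 was slightly higher in tumor 26043, at 26.3 FPKM. Camp and Mpo were highest in tumor 26044, at 4.52 and 0.193 FPKM, where Cxcl1 was lowest. The part of neutrophils was not tested.

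The other members showed no order by genotype or were scarce. Cxcl17, a mucosal chemokine, was at 7.54 FPKM in tumor 26043, listed at 0 in tumor 26044 and at 4.63 and 12.2 FPKM in double-mutant tumors. Ccl27a, a skin chemokine and ligand of CCR10, was at 5.48 and 11.7 FPKM in triple-mutant and at 9.77 and 0.980 FPKM in double-mutant tumors. Its locus overlaps that of Il11ra1 and it has a near copy, Ccl27b, listed at 0, so reads may have been split between them and the value is uncertain. Ccl25, the thymic and gut ligand of CCR9, was at 3.14 and 2.45 FPKM against 2.34 and 5.48 FPKM. Ccl17, a ligand of CCR4, was at 2.17 and 0.411 FPKM against 1.58 and 3.09 FPKM. Of the 37 rows below the filter, 14 were listed at 0 in all tumors, 12 of them rows of Ccl19, Ccl21a, Ccl21b, Ccl21c or Ccl27b on chromosome 4 and its unplaced pieces, and the others Ccl26 and the receptor gene Ccr8. Reads of these near-identical copies may have been split or dropped, so their zeros are uncertain. Of the 12 receptors below the filter, Cxcr5 reached 1.40 FPKM and Ccr7 1.38 FPKM in a single triple-mutant tumor each. Ccr7, which guides dendritic cells to lymph nodes, was at 1.38 and 0.629 FPKM in triple-mutant and at 0.521 and 0.141 FPKM in double-mutant tumors, and it was among 6 of the 23 members below the filter and above 0 in some tumor with both triple-mutant tumors on top, against 18.8% of all such rows. Its ligand gene Ccl19 was the 1 with the opposite order, against 14.7% of all such rows, at 0.111 and 0 FPKM against 1.44 and 0.374 FPKM. Ccl21a was at 4.77 FPKM in tumor 26043 and at or below 0.0950 FPKM elsewhere, with a status that marks its estimate as uncertain in every tumor. Cxcl10 and Cxcl11 share their locus with Art3, Cxcl16 with Zmynd15, Ccl6 with E230016K23Rik, Cxcl17 with 4732471J01Rik and Cxcr6 with Fyco1. The libraries mark strand, but whether the counting used it is not given in the sources used here.

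The promoters of 7 members are shown because they stand for the 3 patterns above: Ccl8, Ccl12, Ccl20 and Cxcr4 for higher levels in both double-mutant tumors, Cxcl14 for the reverse, and Cxcl1 and Cxcl10 for large differences within a genotype. Each line gives the 250 bases before the annotated start of the gene, 5′ to 3′ in the direction of transcription, from RefSeq on GRCm38.p6. Capitals mark matches, on either strand, to the core of the interferon-stimulated response element (GAAA, any 2 bases, GAAA), to the NF-kB consensus or to TGACTCA (the AP-1 site).
Ccl8, chr11:82114935-82115184, plus strand: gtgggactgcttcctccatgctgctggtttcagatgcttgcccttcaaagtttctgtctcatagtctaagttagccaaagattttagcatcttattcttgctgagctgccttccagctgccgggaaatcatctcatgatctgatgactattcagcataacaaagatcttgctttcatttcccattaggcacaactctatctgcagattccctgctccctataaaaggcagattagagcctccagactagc
Ccl12, chr11:82101595-82101844, plus strand: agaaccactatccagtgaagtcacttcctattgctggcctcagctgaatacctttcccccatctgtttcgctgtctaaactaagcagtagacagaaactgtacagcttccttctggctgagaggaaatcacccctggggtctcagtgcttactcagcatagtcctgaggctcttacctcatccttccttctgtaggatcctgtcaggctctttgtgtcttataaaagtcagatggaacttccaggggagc
Ccl20, chr1:83116516-83116765, plus strand: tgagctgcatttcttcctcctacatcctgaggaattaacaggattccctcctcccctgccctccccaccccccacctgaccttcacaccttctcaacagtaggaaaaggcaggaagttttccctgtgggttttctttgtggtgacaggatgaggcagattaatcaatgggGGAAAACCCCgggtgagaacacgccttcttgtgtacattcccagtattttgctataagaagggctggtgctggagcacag
Cxcr4, chr1:128592300-128592549, minus strand: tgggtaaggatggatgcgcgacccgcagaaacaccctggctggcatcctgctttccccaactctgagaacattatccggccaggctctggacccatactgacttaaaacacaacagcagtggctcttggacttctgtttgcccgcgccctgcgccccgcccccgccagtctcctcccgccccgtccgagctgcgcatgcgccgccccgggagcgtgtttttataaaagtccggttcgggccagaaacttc
Cxcl14, chr13:56296552-56296801, minus strand: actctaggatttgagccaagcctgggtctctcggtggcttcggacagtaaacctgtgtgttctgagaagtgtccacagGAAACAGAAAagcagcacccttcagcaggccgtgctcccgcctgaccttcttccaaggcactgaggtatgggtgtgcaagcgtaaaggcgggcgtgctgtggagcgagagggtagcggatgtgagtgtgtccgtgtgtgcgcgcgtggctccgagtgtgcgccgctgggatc
Cxcl1, chr5:90890995-90891244, plus strand: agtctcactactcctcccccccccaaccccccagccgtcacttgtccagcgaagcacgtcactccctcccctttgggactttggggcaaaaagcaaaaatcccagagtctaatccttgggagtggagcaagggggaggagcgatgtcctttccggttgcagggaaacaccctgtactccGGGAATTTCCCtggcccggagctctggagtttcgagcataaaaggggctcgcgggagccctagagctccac
Cxcl10, chr5:92348890-92349139, minus strand: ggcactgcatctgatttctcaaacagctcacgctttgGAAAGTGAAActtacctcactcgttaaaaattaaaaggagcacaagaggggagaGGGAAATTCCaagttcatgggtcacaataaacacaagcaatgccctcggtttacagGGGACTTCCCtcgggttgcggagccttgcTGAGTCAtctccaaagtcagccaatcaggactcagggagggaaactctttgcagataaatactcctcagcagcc

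Of the 30 tested members 21 had an entry in the promoter table, and 9, among them Ccl2, Ccl5 and Ccl7, had none. The NF-kB consensus was found upstream of 4 of the 21 (Ccl9, Ccl20, Cxcl1 and Cxcl10), where 3.90% of all 32817 promoter windows of the same length hold it. In Ccl20 it lay from base -80 to -71 before the start, in Cxcl1 from -71 to -61, as matches on both strands that overlap, and in Cxcl10 at 2 places, from -159 to -150 and from -103 to -94. The interferon-stimulated response element core was found in Cxcl10 from -213 to -204 and in Cxcl14 from -172 to -163, and 2.97% of all windows hold it. TGACTCA was found in Cxcl10, from -74 to -68, and in 4.46% of all windows. The upstream windows of Ccl8, Ccl12 and Cxcr4 held no match to these motifs. A match is a description of the sequence, and factor binding was not measured.

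The genes around the ligands and receptors were read from lists of chemokine signaling. Atypical receptors and chemokines whose symbols do not begin with the family names were 12 symbols, of which 8 were found and 4 tested. Ccrl1, now called Ackr4, which scavenges CCL19 and CCL21, was at 1.87 and 15.7 FPKM in triple-mutant and at 0.306 and 0.0987 FPKM in double-mutant tumors, a log2 difference of 2.53 (standard error 0.90, adjusted p = 0.500 from limma). It passed the filter only through the triple-mutant tumors. Ccrl2, which binds chemerin, was at 7.18 and 3.20 FPKM against 2.72 and 3.02 FPKM, also without overlap but by a margin that is small beside the spread within triple-mutant tumors. Pf4 (CXCL4) and Cmklr1 overlapped, and Ccbp2, Ccr1l1, Darc and Ppbp were below the filter. Of 42 symbols of signal transduction 39 were found and 37 tested, with 0 past an adjusted p under 0.05 in limma, 7 higher in both triple-mutant, 7 higher in both double-mutant tumors and 23 overlapping, which is 18.9% each way and no more than the 21.3% and 22.9% of all genes. Gnai1, an inhibitory G protein alpha subunit, was at 8.42 and 11.2 FPKM in triple-mutant and at 1.75 and 0.651 FPKM in double-mutant tumors, a log2 difference of 2.33 (standard error 0.40, adjusted p = 0.265 from limma). The other inhibitory subunits Gnai2 and Gnai3 overlapped between genotypes. Arrb1, an arrestin that turns receptors off, and Gng5, a G protein gamma subunit, had log2 differences of 0.77 and 0.75. Arrb1 was at 11.9 and 11.6 FPKM in triple-mutant and at 6.96 and 6.06 FPKM in double-mutant tumors. On the double-mutant side the largest log2 differences were those of Wasl, Elmo1 and Pik3r5, which act in actin assembly, Rac activation and PI3-kinase gamma, at -2.36, -1.09 and -0.85. Pik3r5, at 0.829 and 0.516 FPKM against 2.03 and 1.96 FPKM, reached the filter only through the double-mutant tumors. Wasl owed its place mainly to tumor 26050, with 23.3 and 11.5 FPKM in triple-mutant and 43.9 and 178 FPKM in double-mutant tumors. Of 10 genes of chemokine processing and binding 8 were tested, 2 higher in each genotype and 4 overlapping, which is 25% each way and near the 21.3% and 22.9% of all genes. Mmp14, a membrane protease that cleaves CXCL12 and activates MMP2, was at 154 and 196 FPKM in triple-mutant and at 53.2 and 53.5 FPKM in double-mutant tumors, with a log2 difference of 1.68 (standard error 0.27, adjusted p = 0.231 from limma). Mmp2, which cleaves CCL7 and CXCL12, was at 8.32 and 9.16 FPKM against 28.6 and 15.2 FPKM. Adam17 and Adam10, which shed CX3CL1 and CXCL16, differed in direction, with log2 differences of -0.94 for Adam17 and 0.56 for Adam10. Adam17 was at 11.4 and 6.59 FPKM in triple-mutant and at 21.1 and 14.8 FPKM in double-mutant tumors (adjusted p = 0.535 from limma). Adam10 was at 58.9 and 33.3 FPKM against 28.5 and 31.2 FPKM (adjusted p = 0.648 from limma). For Adam10, tumors 26044 and 26050 were nearly equal and tumor 26043 alone was clearly higher.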

How the data were processed

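PolyA RNA of 4 mammary tumors was sequenced from strand-marked libraries as 50-bp single reads. Per the submitters' processing notes and the study's methods, the authors aligned with TopHat2 2.0.10 and Bowtie 0.12.9 to mm10 and estimated the deposited FPKM values per gene, with an interval in FPKM and a status, with Cufflinks 2.1.1; the annotation is not given in the sources used here. The authors' HTSeq counts and DESeq2 1.6.2 results were not used here. The 4 tables were joined on symbol and position, with 1 added to each start so that coordinates count from 1, and genotypes were taken from the sample titles. The 12752 of 23746 rows that reached 1 FPKM or more in 2 or more tumors were fitted as log2(FPKM + 1) with limma 3.58.1 in R 4.3.3 (eBayes with a trend), with Benjamini-Hochberg adjustment over all of them and a threshold of 0.05. Differences on this scale understate those of low genes. The fit was tested on simulated data.

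Members, gene lists and rules were chosen with earlier results of these data known. Named with full values were tested members with a mean of at least 10 FPKM, or with genotypes that do not overlap and a difference of at least 1 log2 unit, their paired ligands or receptors, and up to 3 genes per direction of each pathway list. The remaining members, named by value or range, were not picked by that rule. Precision rests on Cufflinks' interval, whose median half-width over the 30 tested members was 15.3% to 17.7% of its midpoint in 3 tumors and 37.9% in tumor 26044. In 8 to 15 of the 30, depending on the tumor, the interval did not contain the FPKM itself, and it does not cover the spread between tumors. Relative depth was read from the peak of the ratio of values under 0.1 FPKM in each pair of tumors. Upstream windows were taken from the RefSeq promoter table where its start lay within 100 bases of the deposited locus. Tables were made with pandas 2.3.3 and plots with matplotlib 3.10.9. Alternatives changed the pseudocount to 0.1 or the filter to none or to 5 FPKM, rescaled values to TPM or by quantiles, dropped the trend or genes of another status than OK, or left out each tumor. Using each interval's midpoint instead, and leaving out genes that reached the filter through a single genotype, were added after seeing the data. Protein features of the ligands were not analysed here, and the values of 1 member that enters the counts are not reported here.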

Additional observations from a re-analysis of the deposited data

How the results depend on the processing

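No member passed an adjusted p under 0.05 in limma under any of the alternatives, the smallest being 0.107. The 16 members whose genotypes do not overlap kept their sign in every alternative in which they were tested. For such members only TPM rescaling, quantile normalization and the interval midpoint could have turned the sign. Under the other alternatives, leaving out a tumor among them, the absence of overlap fixed the sign in advance. Ccl3, Ccl20, Ccr1, Ccr2 and Cxcr2 were not tested with the filter of 5 FPKM, and with the interval midpoint Cx3cr1 overlapped between genotypes. With each tumor left out, the number of members higher in double-mutant tumors ran from 16 to 25 and by at least 1 log2 unit from 5 (without tumor 26044) to 20 (without tumor 26043), and the numbers higher in triple-mutant tumors from 2 to 4 and from 1 to 4. The median difference of the members ran from -1.42 to -0.34, and with no filter, over 67 rows, it was -0.0042. The numbers higher in triple-mutant tumors became 7 and, by at least 1 log2 unit, 3 with no filter, and 2 and 2 both with TPM rescaling and with the interval midpoint, where the members tested came to 31. For 10 members whose genotypes overlap the sign turned when a tumor was left out, and in no other setting. The differences ran from -0.78 to 0.18 for Ccl25, from -0.25 to 2.19 for Ccl27a, from -0.92 to 0.16 for Ccl4, from -1.28 to 1.35 for Ccl5, from -1.31 to 0.68 for Cxcl9, from -3.43 to 1.09 for Cxcl10, from -0.64 to 1.16 for Cxcl11, from -1.36 to 1.96 for Cxcl12, from -1.96 to 0.24 for Cxcl16 and from -1.53 to 0.64 for Cxcr7. A single tumor left in a genotype is assumed to vary like the tumors of the other. The median difference of all genes was -0.02, and -0.12 without tumor 26043 and 0.06 without tumor 26044. No paired analysis was possible because the labels give no number that is shared between genotypes, and the litters of these tumors are not given in the sources used here. With the number of reads unknown, no counting limit can be set for low members such as Ccr3, Cxcr3 or Cxcr6.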
